A study of Homo sapiens with 18 samples.

Results

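Oligosaccharyltransferase (OST) is the enzyme of the endoplasmic reticulum (ER) membrane that moves a preassembled glycan from a lipid carrier onto asparagine residues of proteins entering the ER. The mRNAs of 10 of its subunits, out of 25435 rows of the gene table, were followed across 18 RNA-Seq libraries: STT3A, STT3B, RPN1, RPN2, DDOST, DAD1, OSTC, KRTCAP2, TUSC3 and MAGT1. The subunits were taken by gene name as known parts of the enzyme, with earlier results of these data known, and all 10 passed the filter on low counts in every comparison. The libraries came from HEK293doxERN2, a human embryonic kidney line that carries a FLAG-tagged ERN2 (IRE1β) transgene switched on by doxycycline. The labels name 3 groups given DMSO for 3 hr (No ERN2, control; Low ERN2, control; High ERN2, control) and 3 given 200 nM thapsigargin for 3 hr (No ERN2, stress; Low ERN2, stress; High ERN2, stress). No, Low and High stand for 0, 10 and 100 ng/mL doxycycline over 24 hr, and each of the 6 groups has 3 libraries. All groups carry the transgene, and cells without it were not analysed here, so an effect of doxycycline itself and an effect of ERN2 cannot be told apart. ERN2 is normally restricted to mucosal epithelia, and its level here was set by the induced transgene.

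Mammalian cells build OST around either of a pair of catalytic subunits. STT3A sits in the complex that docks to the SEC61 translocon and modifies chains as they enter the ER, whereas STT3B can modify sites that were passed over, also after a chain has been completed. RPN1, RPN2, DDOST and DAD1 belong to both complexes. OSTC and KRTCAP2 (DC2 and KCP2) link the STT3A complex to the translocon, and the thioredoxin-fold proteins TUSC3 and MAGT1 are alternative subunits of the STT3B complex. Thapsigargin blocks the ER calcium pump and brings on ER stress. The stress sensor ERN1 (IRE1α) responds to it by splicing XBP1 mRNA and by cutting other mRNAs at the ER. ERN2 can do both, but the authors describe its enzyme activity as weaker and its response to ER stress as marginal. They also describe ERN2 as a suppressor of ERN1 signaling under stress.

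Totals per library ran from 14876416 to 24652240 counts. ERN2 mRNA was 6.57 to 9.1 CPM (reads scaled to library size) in the uninduced control libraries and 249 to 309 CPM at 100 ng/mL, with 175 to 272 CPM at that dose under thapsigargin. The middle dose was uneven: replicate 3 had 55.9 CPM of ERN2 against 22.5 and 27.1 in the other control libraries, and 112 CPM against 32.1 and 53.9 under thapsigargin. Of the 5 markers of HEK293 cells all were detected, with a summed level of 1516 to 2598 CPM. Most of that sum was VIM (1336 to 2372 CPM), and PAX2 was the lowest (1.2 to 4.35 CPM). The extraction text of the labels names colon crypt cells, but 8 of 10 markers of colon epithelium were under 1 CPM in every group, MUC2 and VIL1 among them, and the summed level of the list was 12.5 to 27.3 CPM. The exceptions were EPCAM (7.04 to 22.3 CPM) and CDX2 (3.36 to 8.83 CPM). The libraries are therefore described as HEK293 cells.

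The IRE1 ribonuclease cuts XBP1 mRNA in stem loops, and CTGCAG is the sequence commonly sought in other mRNAs that these enzymes cut, so the principal transcripts (GENCODE 29, GRCh38) of the subunits were searched for it on the mRNA strand. A match says only that the letters are present. The sites of the subunits that hold any are shown with 12 bases on each side and the motif in capitals, because the subunits with and without them are compared with their mRNA levels further on. They lie in coding sequence, and coordinates are given as chromosome, start and end of the window, with the strand of the gene.
RPN1, chr3:128625606-128625635 (-): aaggtgctcatgCTGCAGgagcccctgctg
RPN1, chr3:128622191-128622220 (-): gagattgcactgCTGCAGtccaggctgaag
STT3A, chr11:125609550-125609579 (+): tactattttgacCTGCAGctcctcgtcttc
STT3B, chr3:31615186-31616940 (+, across 2 exons): aacacatggcagCTGCAGgtgtctttgcat
STT3B, chr3:31617019-31617048 (+): gtgtatcactagCTGCAGgtgctgtgttcc
RPN2, chr20:37203886-37203915 (+): acagtccaggctCTGCAGacagcatcccac
RPN2, chr20:37207340-37207369 (+): tcagcgtggcctCTGCAGctgctgtgctct
DAD1, chr14:22589023-22589052 (-): ctgaccggggcgCTGCAGttcggttactgt

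The 5 genes named in that list hold 1 or 2 matches each, and DDOST, OSTC, KRTCAP2, TUSC3 and MAGT1 hold 0. The motif is common: 82.1% of 19651 principal transcripts hold it, as do 83.9% of 2183 transcripts within 10% of the length of RPN1 and 49.9% of 441 of the length of DAD1. Promoter windows of 250 bases before and 50 after the start (RefSeq, GRCh38.p14) were found for 7 of the 10 subunits, with no entry for STT3B, RPN1 or TUSC3. The elements bound by the stress factors ATF6 and XBP1 were searched on both strands: ERSE (CCAAT and CCACG with 9 bases between them), ERSE-II (ATTGG and CCACG with 1 base between them) and UPRE (TGACGTGG). None of the 7 subunits holds one, against 0.0769%, 0.0541% and 0.729% of 35116 promoters. The shorter CCACG, which is contained in ERSE and ERSE-II, occurs in DDOST and OSTC and in 38.1% of all promoters. At 10 ng/mL with vehicle DDOST (0.34 on the log2 scale) and OSTC (0.41) had the largest positive differences of the subunits, but neither passed the test described further on. Of the further OST subunits followed below, OST4 holds CCACG and TMEM258, which rose at that dose, does not. The promoters of DDOST and OSTC are printed from the 250 bases before the start, with CCACG in capitals.
DDOST, chr1:20661370-20661619 (-): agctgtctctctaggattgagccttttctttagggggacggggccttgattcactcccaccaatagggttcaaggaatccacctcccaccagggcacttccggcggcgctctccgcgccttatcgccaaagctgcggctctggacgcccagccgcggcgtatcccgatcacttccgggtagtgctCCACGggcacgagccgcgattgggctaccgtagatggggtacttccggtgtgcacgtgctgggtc
OSTC, chr4:108650349-108650598 (+): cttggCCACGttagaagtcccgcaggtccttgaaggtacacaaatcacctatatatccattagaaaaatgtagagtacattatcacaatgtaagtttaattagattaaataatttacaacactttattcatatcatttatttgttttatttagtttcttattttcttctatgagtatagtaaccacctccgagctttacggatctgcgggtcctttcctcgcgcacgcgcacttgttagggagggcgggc

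In uninduced control cells the subunit mRNAs were far from equal. Per kilobase of the principal transcript, RPN2 was highest at 213 ± 9.52 CPM per kb (SD, n = 3), followed by DDOST at 144 ± 9.30 and RPN1 at 114 ± 4.58 CPM per kb. KRTCAP2 (78.9 ± 7.96), DAD1 (78.1 ± 7.27) and STT3A (74.0 ± 3.22 CPM per kb) came next and lay within 1 SD of each other. MAGT1 stood at 62.5 ± 8.16 CPM per kb, TUSC3 at 42.9 ± 1.27, OSTC at 34.2 ± 5.91 and STT3B at 30.9 ± 3.19, the last pair again within 1 SD. STT3B mRNA was thus the lowest of the 10 and less abundant than its paralog STT3A. RPN2 and DDOST kept ranks 1 and 2 in all 6 groups, whereas RPN1 stood at rank 3 in uninduced cells and at rank 8 at 100 ng/mL, with or without thapsigargin.

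**Figure D1:**
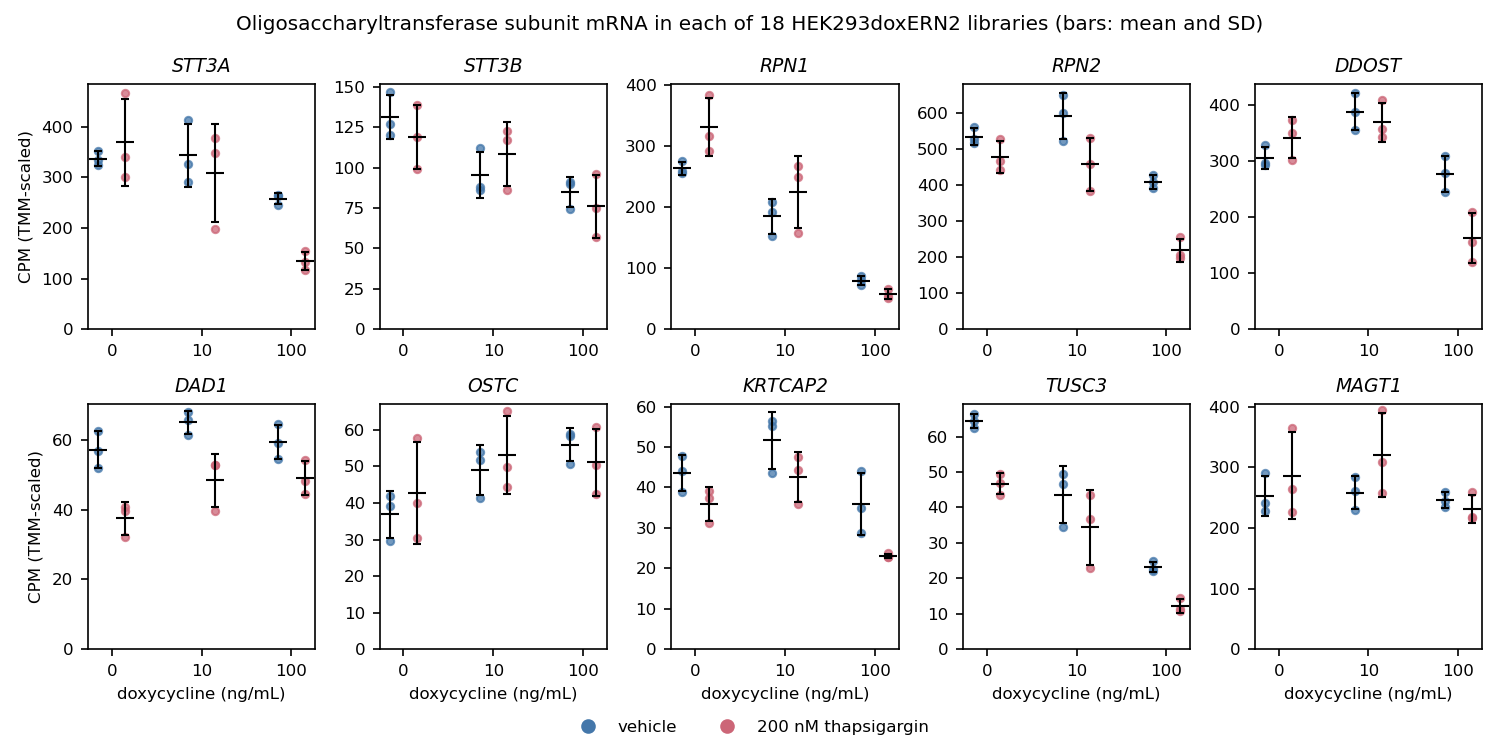
Level of each OST subunit mRNA (CPM scaled by TMM, linear axis from 0) against doxycycline dose (ng/mL), 1 point per library, vehicle in blue and thapsigargin in red, with bars for mean and SD of 3 libraries. RPN1 and TUSC3 step down with dose in both treatments, MAGT1 stays near 250 CPM in control cells (228 to 290.5), and STT3A, RPN2 and DDOST are lowest in the 3 libraries given 100 ng/mL doxycycline and thapsigargin.

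The comparison of 100 ng/mL with no doxycycline in vehicle-treated cells asks how the OST mRNAs differ with doxycycline and the ERN2 it induces, without thapsigargin. RPN1, TUSC3, STT3B, STT3A and RPN2 fell, and no subunit rose. This was 5 of 10 subunits past an adjusted p of 0.01 (edgeR quasi-likelihood test, Benjamini-Hochberg over 14444 genes), where 8.33% of all genes tested passed and 7.49% fell. The median log2 fold change of the 10 subunits was -0.37, against -0.0068 over all genes. The sum of the 10 mRNAs went from 2028 ± 76.8 CPM to 1529 ± 37.3 CPM. In bulk RNA, fewer cells of a kind and less RNA per cell cannot be told apart.

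RPN1, a ribophorin that holds substrate proteins near the active site, had the largest decrease. Its level was 256, 259.6 and 276 CPM in the uninduced libraries and 72.0, 86.6 and 80.4 CPM at 100 ng/mL. The groups were far apart, and RPN1 fell by 1.77 on the log2 scale (SE 0.11, adjusted p = 3.92e-07), or 3.41-fold. With 10 ng/mL the libraries had 192, 209 and 153 CPM, all below the uninduced ones, and the log2 fold change of -0.52 did not pass (adjusted p = 0.0681). RPN1 also fell from the lower to the higher dose, by 1.24 (SE 0.14, adjusted p = 0.00234), although this call was lost without replicate 2 of the lower dose (adjusted p = 0.0154) or replicate 1 (0.0101) or 3 (0.0253) of the higher dose.

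RPN2, the second ribophorin, had 528, 516 and 562 CPM without doxycycline and 391, 428 and 409 CPM at 100 ng/mL. The libraries did not overlap, and RPN2 fell by 0.43 (SE 0.0966, adjusted p = 0.00943). That decrease is close to the threshold: without single libraries the adjusted p was 0.00414 to 0.0414, and the call held only without replicate 2 at 100 ng/mL. At 10 ng/mL RPN2 was not lower, with 602, 651 and 524 CPM and a log2 fold change of 0.14 (95% interval -0.08 to 0.37).

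The remaining shared subunits behaved differently. DDOST, which is needed for the stability of the complex, had 296, 292 and 328 CPM without doxycycline and 244, 308 and 278 CPM at 100 ng/mL, so the groups overlapped (log2 fold change -0.19, 95% interval -0.43 to 0.06). At 10 ng/mL its 3 libraries (355, 421 and 387 CPM) all lay above the uninduced ones, with a log2 fold change of 0.34 and an adjusted p of 0.0825. DAD1, a small subunit first described as a defender against cell death, was 51.9, 62.5 and 56.9 CPM without doxycycline and 54.6, 64.4 and 59.1 CPM at 100 ng/mL. No difference could be resolved for DAD1, the 95% interval being -0.25 to 0.28. RPN1 and DAD1, both with CTGCAG in the coding sequence, stood at opposite ends of the shared subunits, and RPN2, which also holds it, fell.

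Both catalytic subunits fell in the absence of thapsigargin. STT3B had 120.5, 147 and 127 CPM without doxycycline and 91.1, 74.3 and 89.7 CPM at 100 ng/mL, a decrease by 0.67 (SE 0.119, adjusted p = 0.00177), which held without any 1 library but not with all 6 groups in 1 fit (adjusted p = 0.0161). Its libraries at 10 ng/mL (112, 86.1 and 88.3 CPM) also lay below the uninduced ones, with -0.46 on the log2 scale (adjusted p = 0.0788). STT3A had 324, 334 and 353 CPM without doxycycline against 265, 245 and 264 CPM at 100 ng/mL. It fell by 0.43 (SE 0.095, adjusted p = 0.00855), a call lost in each of the 6 fits without 1 library (adjusted p 0.0109 to 0.0462). At 10 ng/mL the libraries of STT3A were spread over 413, 327 and 291 CPM on both sides of the uninduced level (0.02, 95% interval -0.25 to 0.30).

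Of the subunits that join STT3A to the translocon, neither passed the test. OSTC had 29.7, 41.8 and 39.1 CPM without doxycycline and 58.8, 50.8 and 58.3 CPM at 100 ng/mL. Its libraries at 100 ng/mL were all above the uninduced ones, and its log2 fold change of 0.56 had an adjusted p of 0.0175, or 0.00244 without replicate 2 at 100 ng/mL and 0.00201 by DESeq2. KRTCAP2 overlapped between the groups, with 44.1, 38.9 and 47.7 CPM against 28.8, 44.0 and 34.9 CPM (-0.32, 95% interval -0.66 to 0.03). KRTCAP2 overlaps another annotated gene on the same strand, AL713999.1, over 4067 bases, nearly its whole length, so its reads may be shared with it. OSTC has 6 processed copies elsewhere in the genome.

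The alternative subunits of the STT3B complex parted. TUSC3 had 64.3, 66.3 and 62.5 CPM without doxycycline, 49.5, 46.7 and 34.4 CPM at 10 ng/mL and 22.0, 22.7 and 24.9 CPM at 100 ng/mL. The 3 doses did not overlap, and TUSC3 fell by 1.52 at 100 ng/mL (SE 0.116, adjusted p = 2.28e-06), or 2.86-fold, with -0.57 at 10 ng/mL (adjusted p = 0.074). From the lower to the higher dose it fell by 0.94 (SE 0.163, adjusted p = 0.00807), a call lost without replicate 2 at 10 ng/mL (adjusted p = 0.0522) or without replicate 1, 2 or 3 at 100 ng/mL (0.0345, 0.0128 and 0.0451). MAGT1 had 228, 290.5 and 241 CPM without doxycycline and 260, 235 and 244 CPM at 100 ng/mL. The MAGT1 groups overlapped, and the 95% interval of its log2 fold change was -0.32 to 0.16. TUSC3, with a decrease second only to that of RPN1 among the 10, holds no CTGCAG in its principal transcript. Of the subunits that hold it, RPN1, RPN2, STT3A and STT3B fell at 100 ng/mL with vehicle and DAD1 did not pass. Of those without it TUSC3 fell, and DDOST, OSTC, KRTCAP2 and MAGT1 did not pass. At 100 against 0 ng/mL under thapsigargin, STT3A, RPN1 and RPN2 fell of those with the motif, and TUSC3 and DDOST of those without. A link between the motif and the change in level was not tested.

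At 10 ng/mL against no doxycycline in vehicle-treated cells, 0 of 10 subunits passed, where 0.193% of 14497 genes did. At an unadjusted p under 0.05, 2 subunits were higher (DDOST and OSTC) and 3 lower (STT3B, RPN1 and TUSC3), against 14% and 16.5% of genes. DESeq2 called 2, both lower (RPN1, adjusted p = 0.0051, and TUSC3, 0.0068), where it called 3.21% of genes. Without replicate 1 at 10 ng/mL, STT3B, RPN1, DDOST and TUSC3 passed, and so did 2743 of all genes, against 28 with every library kept. From 10 to 100 ng/mL, 2 of 10 fell (RPN1 and TUSC3), where 2.45% of 14549 genes passed and 2.43% fell. Without replicate 2 at 10 ng/mL, or without replicate 1 or 3 at 100 ng/mL, that count was 0, and without replicate 2 at 100 ng/mL it was 1. The fits that gave 0 subunits called 9, 21 and 0 of all genes, in that order, against 356 with every library kept. These comparisons share libraries with each other and with that at 100 ng/mL and are not independent.

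**Figure D2:**
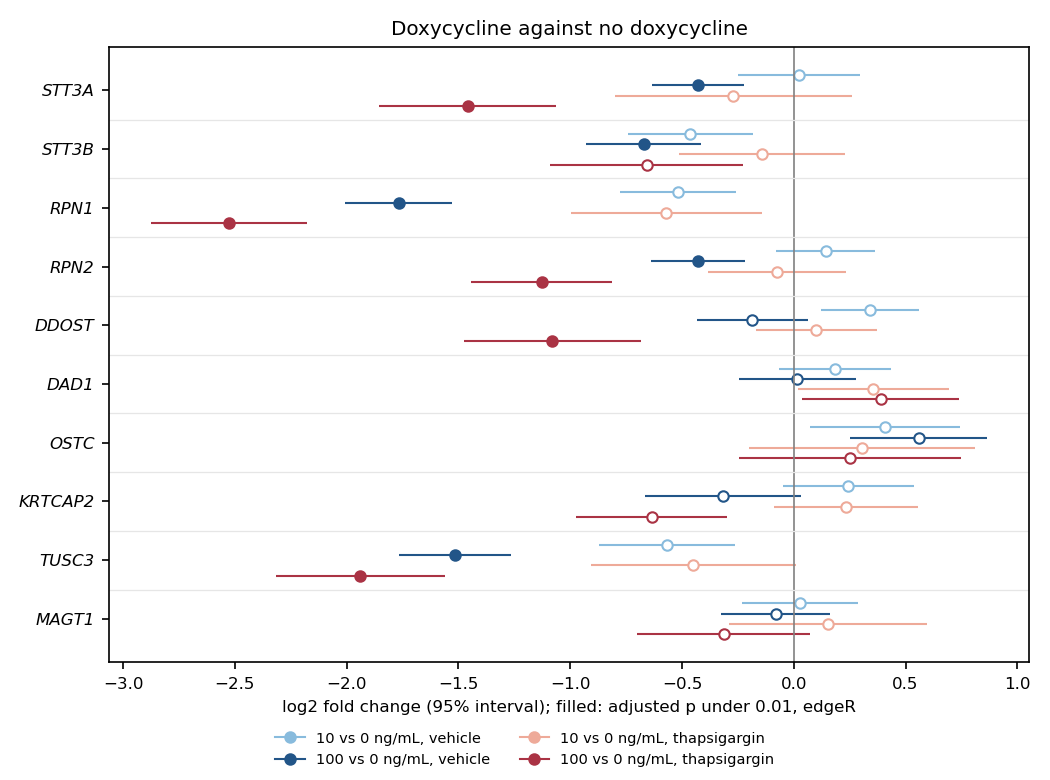
Log2 fold change of each OST subunit for 10 and for 100 against 0 ng/mL doxycycline, in vehicle-treated (blue) and thapsigargin-treated cells (red), with 95% intervals from edgeR and filled points for an adjusted p under 0.01. RPN1 and TUSC3 lie furthest to the left at 100 ng/mL in both treatments (-1.77 and -1.52 with vehicle, -2.53 and -1.94 with thapsigargin), and DAD1 and OSTC lie at or to the right of 0 at both doses.

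Thapsigargin was compared with vehicle at each dose to ask how the subunits responded to acute ER stress. In uninduced cells DAD1 and TUSC3 fell, 2 of 10 subunits where 11.2% of 14397 genes passed (6.45% higher and 4.74% lower), a share near that of all genes. The median of the subunits was 0.0064 on the log2 scale and that of all genes -0.0066. DAD1 went from 51.9, 62.5 and 56.9 CPM to 32.1, 40.6 and 39.7 CPM, a decrease by 0.60 (SE 0.128, adjusted p = 0.00522). TUSC3 went from 64.3, 66.3 and 62.5 CPM to 47.0, 49.4 and 43.5 CPM and fell by 0.45 (SE 0.109, adjusted p = 0.00975). Neither gene's libraries overlapped between the treatments. The DAD1 call was lost without any 1 of the 3 control libraries or stress replicate 1 (adjusted p 0.0103 to 0.0286), and the TUSC3 call without any 1 of the 6 libraries (0.0157 to 0.0363). RPN1 differed in the other direction: 292, 384 and 317 CPM under thapsigargin lay above the 3 vehicle libraries, with a log2 fold change of 0.34 and an adjusted p of 0.0492. Over the same 3 hours XBP1, the transcription factor of this branch of the stress response, rose by 2.66 on the log2 scale (SE 0.099, adjusted p = 1.78e-09).

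At 10 ng/mL, 0 of 10 subunits passed for thapsigargin against vehicle, where 1.45% of 14607 genes did. At an unadjusted p under 0.05 there were 0 higher and 2 lower (RPN2 and DAD1), against 13.6% and 11% of genes, and DESeq2 called 0 subunits where it called 7.8% of genes. At 100 ng/mL, 0 of 10 passed by edgeR, where 0.201% of 14427 genes did (0.18% higher and 0.0208% lower; with library totals alone, 28 higher and 23 lower). The log2 fold changes of all 10 subunits were nevertheless below 0 (with each of the 3 scalings tried), from -0.91 to -0.07 with a median of -0.53, and 7 of the 10 lay below the vehicle libraries without overlap, as did 15.1% of all genes tested. At an unadjusted p under 0.05, 0 subunits were higher and 6 lower, against 14.6% and 12.3% of genes, and DESeq2 called 4 (STT3A, RPN2, DDOST and TUSC3) and 5.64% of genes. The same 4 passed in edgeR without replicate 1 of the thapsigargin libraries, with adjusted p from 0.000184 to 0.00266. In that fit 2568 of all genes passed, against 29 with every library kept. STT3A had 265, 245 and 264 CPM with vehicle and 117, 133 and 154 CPM with thapsigargin at 100 ng/mL (-0.91, adjusted p = 0.0118). RPN2 had 391, 428 and 409 CPM with vehicle and 256, 197 and 206 CPM with thapsigargin (-0.88, adjusted p = 0.0131). Both were well separated between treatments in these libraries although neither met the threshold. Thapsigargin replicate 1 at this dose had more ERN2 (272 CPM against 175 in both others) and more DDOST (209 against 120.5 and 156 CPM).

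**Figure D3:**
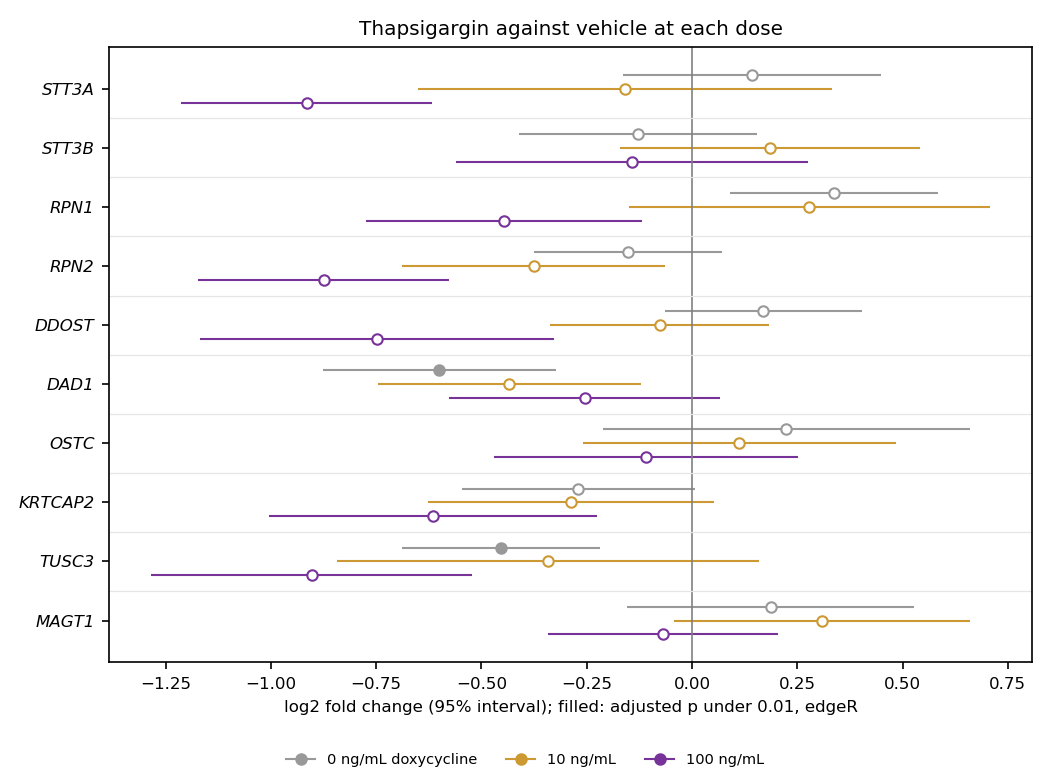
Log2 fold change of each OST subunit for thapsigargin against vehicle at 0, 10 and 100 ng/mL doxycycline, with 95% intervals from edgeR and filled points for an adjusted p under 0.01. Filled points are DAD1 (-0.60) and TUSC3 (-0.45) at 0 ng/mL, and at 100 ng/mL all 10 points lie below 0.

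Whether the response to thapsigargin itself differed with dose was tested as an interaction in 1 fit of 12 libraries. For 100 against 0 ng/mL, 0 of 10 subunits passed, where 0.0406% of 14768 genes did. At an unadjusted p under 0.05, 1 subunit was higher (DAD1) and 4 were lower, against 15.6% and 9.15% of genes. The lower ones were STT3A (-0.98, adjusted p = 0.0472), DDOST (-0.84, adjusted p = 0.0744), RPN1 (-0.70, adjusted p = 0.0652) and RPN2 (-0.64, adjusted p = 0.0642). DESeq2 called 3 of these (STT3A, 0.000566; RPN1, 0.00528; RPN2, 0.00409) and 2.88% of genes, and edgeR without replicate 1 of the libraries with 100 ng/mL and thapsigargin called STT3A, RPN2 and DDOST. The edgeR fit without that library called 1286 of all genes, against 6 with every library kept. With all 12 libraries STT3B was near 0 with an interval from -0.48 to 0.61, and its sign depended on the scaling (0.07 with TMM, 0.0048 with RLE, -0.12 with library totals). With library totals alone the median of all genes in this test moved from 0.0393 to -0.136. The 95% intervals of these interactions were wide, for instance -0.90 to 0.40 for OSTC, so a count of 0 does not show that the responses were alike. For 10 against 0 ng/mL, 0 of 10 subunits and 0 of 14857 genes passed by edgeR. There 0 subunits had an unadjusted p under 0.05, against 2.68% of all genes higher and 1.79% lower, and DESeq2 called 2 genes in all (0.00968%).

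In cells treated with thapsigargin, 100 against 0 ng/mL doxycycline gave larger decreases of RPN1 and TUSC3 than any other comparison. RPN1, TUSC3, STT3A, RPN2 and DDOST fell and none rose, 5 of 10 where 10.5% of 14358 genes passed and 9% fell. The median of the subunits was -0.87 against 0.0439 over all genes, and the summed level was 2088 ± 306 CPM without and 1017 ± 76 CPM with doxycycline. RPN1 had 292, 384 and 317 CPM without doxycycline and 55.0, 51.2 and 66.7 CPM at 100 ng/mL, and fell by 2.53 on the log2 scale (SE 0.161, adjusted p = 1.39e-06), or 5.76-fold. TUSC3 had 47.0, 49.4 and 43.5 CPM against 10.8, 11.3 and 14.5 CPM and fell by 1.94 (SE 0.174, adjusted p = 1.33e-05). For both genes the 2 groups of libraries lay far apart.

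STT3A, which had fallen only a little with vehicle, had 341, 466 and 300.4 CPM without doxycycline and 117, 133 and 154 CPM at 100 ng/mL under thapsigargin. It fell by 1.46 (SE 0.183, adjusted p = 0.000128). RPN2 had 441, 528 and 467 CPM against 256, 197 and 206 CPM and fell by 1.13 (SE 0.145, adjusted p = 0.000157). DDOST had 301, 373 and 349 CPM against 209, 120.5 and 156 CPM and fell by 1.08 (SE 0.183, adjusted p = 0.00118). These 5 calls held in each of the 6 fits without 1 library. KRTCAP2 had 31.1, 37.4 and 39.1 CPM against 23.7, 22.7 and 22.8 CPM, without overlap, at -0.64 (adjusted p = 0.0126, and 0.00366 without stress replicate 1 at 100 ng/mL). STT3B had 119, 139 and 99.3 CPM against 56.9, 75 and 96.2 CPM, where the highest induced library came close to the lowest uninduced one, at -0.66 (adjusted p = 0.0342, and 0.00929 without stress replicate 3 at 100 ng/mL). DAD1 pointed upward: 44.6, 54.3 and 48.1 CPM at 100 ng/mL lay above 32.1, 40.6 and 39.7 CPM, at 0.39 with an adjusted p of 0.106. OSTC (0.25) and MAGT1 (-0.31) overlapped between the doses.

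From 10 to 100 ng/mL under thapsigargin, RPN1, TUSC3, STT3A, DDOST, RPN2 and KRTCAP2 fell. These were 6 of 10 subunits where 5.55% of 14493 genes passed and 5.32% fell, with a median of -0.97 against 0.0025 over all genes. Replicate 3 of the middle dose, which carried the most ERN2, also had the lowest STT3A of its group (198 against 349 and 378 CPM) and the lowest RPN1 (158 against 249 and 268 CPM). Without that library 5 subunits still passed (KRTCAP2 did not, adjusted p = 0.0193), as they did without stress replicate 3 at 100 ng/mL, while 3 passed without stress replicate 1 at 10 ng/mL and only RPN1 passed without stress replicate 2 at either dose. The decreases were 1.96 for RPN1 (SE 0.203, adjusted p = 0.000325), 1.49 for TUSC3 (SE 0.24, 0.00175), 1.19 for STT3A (SE 0.218, 0.00355), 1.19 for DDOST (SE 0.189, 0.00161), 1.06 for RPN2 (SE 0.164, 0.00141) and 0.88 for KRTCAP2 (SE 0.172, 0.00518), on the log2 scale with edgeR adjusted p.

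For 10 against 0 ng/mL under thapsigargin, 0 of 10 subunits and 0 of 14509 genes passed by edgeR. At an unadjusted p under 0.05 there was 1 subunit higher (DAD1) and 1 lower (RPN1), against 1.23% and 2.99% of all genes, and DESeq2 called 39 genes (0.342%) but 0 subunits. In these groups libraries with the same replicate number deviated together, and a fit with the replicate number as a block called 3.89% of genes and 3 subunits. In that blocked fit RPN1 fell by 0.59 (adjusted p = 0.000125), TUSC3 fell by 0.48 (adjusted p = 0.00514) and DAD1 rose by 0.35 (adjusted p = 0.004). Leaving out replicate 3 of the middle dose, which stands apart, gave 0 calls in the fit without the block.

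The balance between paralogous subunits was taken within each library as a ratio of reads, which does not depend on how libraries are scaled. Among the STT3B-complex subunits, MAGT1 over TUSC3 was 3.55, 4.38 and 3.85 in uninduced control cells and 11.8, 10.4 and 9.80 at 100 ng/mL. Under thapsigargin it was 5.65, 7.41 and 5.21 without doxycycline and 20.1, 19.2 and 17.8 at 100 ng/mL, the highest ratios of the series. The middle dose lay between, at 5.73, 5.59 and 6.69 with vehicle and 7.09, 10.8 and 11.3 with thapsigargin. At 100 against 0 ng/mL the ratio rose 2.93-fold (1.55 on the log2 scale), higher in 6 of 6 libraries than in any uninduced library of the same treatment. The p of an exact two-sided permutation test within treatment was 0.005, the smallest that the 400 arrangements can give, and 0.01 adjusted over 4 ratio tests. With thapsigargin against vehicle it rose 1.64-fold (0.71 on the log2 scale, exact permutation p = 0.00025, the smallest of 8000 arrangements, 0.001 adjusted). Within a single treatment or dose, where 3 libraries against 3 cannot give an exact p below 0.1, each of the 5 differences had that value.

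STT3B over STT3A went in different directions. In control cells it was 0.372, 0.439 and 0.360 without doxycycline and 0.343, 0.303 and 0.340 at 100 ng/mL, a difference of -0.244 on the log2 scale. Under thapsigargin it was 0.350, 0.299 and 0.331 without doxycycline and 0.485, 0.563 and 0.623 at 100 ng/mL, a difference of 0.765. The libraries did not overlap in either treatment, and with both treatments joined the difference was 0.26 (exact permutation p = 0.17). Thapsigargin against vehicle gave 0.29 over the 3 doses (exact permutation p = 0.044, adjusted over 4 tests 0.0587), with -0.255 at 0, 0.376 at 10 and 0.755 at 100 ng/mL. STT3A mRNA thus exceeded that of STT3B in all 18 libraries, by the least where 100 ng/mL doxycycline and thapsigargin were combined.

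**Figure D4:**
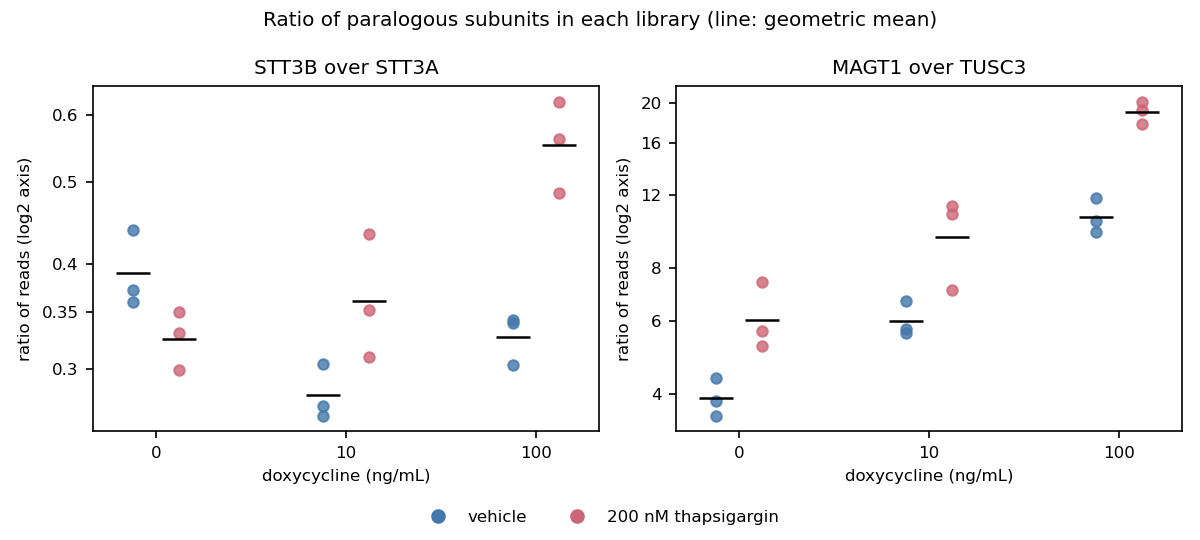
Ratio of reads of STT3B to STT3A (left) and of MAGT1 to TUSC3 (right) in each library against doxycycline dose (log2 axes), vehicle in blue and thapsigargin in red, lines for the geometric mean of 3 libraries. MAGT1 over TUSC3 goes up with dose in both treatments, to 17.8 to 20.1, while STT3B over STT3A is highest (0.485 to 0.623) with 100 ng/mL and thapsigargin.

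The genes whose pattern over the 6 group means was most like that of each catalytic subunit were sought among 10255 genes with a mean of at least 10 CPM, each centred on its own mean in log2 CPM. For STT3A they were VAC14, SLC35F6 and LTBR, with root mean square differences of 0.0549, 0.0625 and 0.0659. VAC14 went from 55.3 CPM in uninduced control cells to 41.5 CPM at 100 ng/mL and 21.8 CPM with thapsigargin added. For STT3B they were BVES, SLC12A2 and ITPR2, at 0.0387, 0.046 and 0.0488. SLC12A2, a cotransporter of sodium, potassium and chloride, went from 133 CPM to 84.1 and 78.3 CPM over the same groups. This likeness is a description over 6 means and was not tested.

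Other genes of N-glycosylation were followed as lists for context. The small OST subunits OST4 and TMEM258 each rose with doxycycline in at least 1 comparison. TMEM258 rose at 10 ng/mL (0.96 on the log2 scale, SE 0.145, adjusted p = 0.00966) and at 100 ng/mL (1.07, SE 0.157, adjusted p = 0.000405) with vehicle, from 29.7, 25.3 and 27.8 CPM to 52.2, 74.5 and 52.5 CPM at the higher dose. OST4 rose at 100 ng/mL under thapsigargin (0.65, SE 0.143, adjusted p = 0.00634), from 36.7, 37.0 and 38.6 CPM to 60.0, 60.4 and 56.4 CPM. With thapsigargin against vehicle neither passed: OST4 was at -0.46 in uninduced cells (adjusted p = 0.0204) and -0.23 at 100 ng/mL, and TMEM258 at -0.19 and -0.58, both below the vehicle libraries without overlap at 100 ng/mL. Of the 7 subunits of the neighbouring SEC61 and TRAP complexes, 4 rose and 0 fell at 100 ng/mL with vehicle, where 8.33% of all genes passed, with SSR2 (1.03), SEC61B (0.97) and SEC61A1 (0.80) ahead and a list median of 0.77. Under thapsigargin 2 of these 7 rose (SEC61G, 2.00; SEC61B, 0.80), where 10.5% of all genes passed, with a median of -0.03. At 10 ng/mL with vehicle 3 rose, SSR2 (1.02), SEC61B (0.87) and SEC61A1 (0.78), where 0.193% of all genes passed, whereas none of the 10 OST subunits passed. Without control replicate 1, 2 or 3 at 0 ng/mL, or replicate 2 at 10 ng/mL, 0 of all genes passed in that comparison. The calls of these 3 genes and of TMEM258 at 10 ng/mL were therefore lost in those fits.

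Of 8 genes that trim the transferred glycan or read it during folding, 3 fell at 100 ng/mL with vehicle and 0 rose, against 7.49% of all genes that fell. These were the lectin chaperone CALR (-1.45) and both chains of glucosidase II, PRKCSH (-1.22) and GANAB (-0.59), and the list median was -0.23. Under thapsigargin 4 of the 8 fell, against 9% of all genes, led by PRKCSH (-1.97), CALR (-1.72) and GANAB (-1.16), with a median of -0.69. Of 24 genes that build the lipid-linked glycan, 3 fell and 1 rose at 100 ng/mL with vehicle (median -0.14), where 8.33% of all genes passed, with SRD5A3 (-1.61) and ALG1 (-1.44) falling furthest and ALG2 rising 1.99-fold. Under thapsigargin 5 of the 24 fell and 0 rose (median -0.38), where 10.5% of all genes passed, led by ALG1 (-1.90), SRD5A3 (-1.45) and ALG3 (-1.09). With thapsigargin alone, in uninduced cells, 4 of the 24 rose and 1 fell, the largest being ALG12 (0.96), ALG2 (0.90) and ALG8 (-0.84), and CALR rose (0.99) as 1 of the 8 trimming and lectin genes, a share near the 11.2% of all genes that passed in that comparison.

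**Figure D5:**
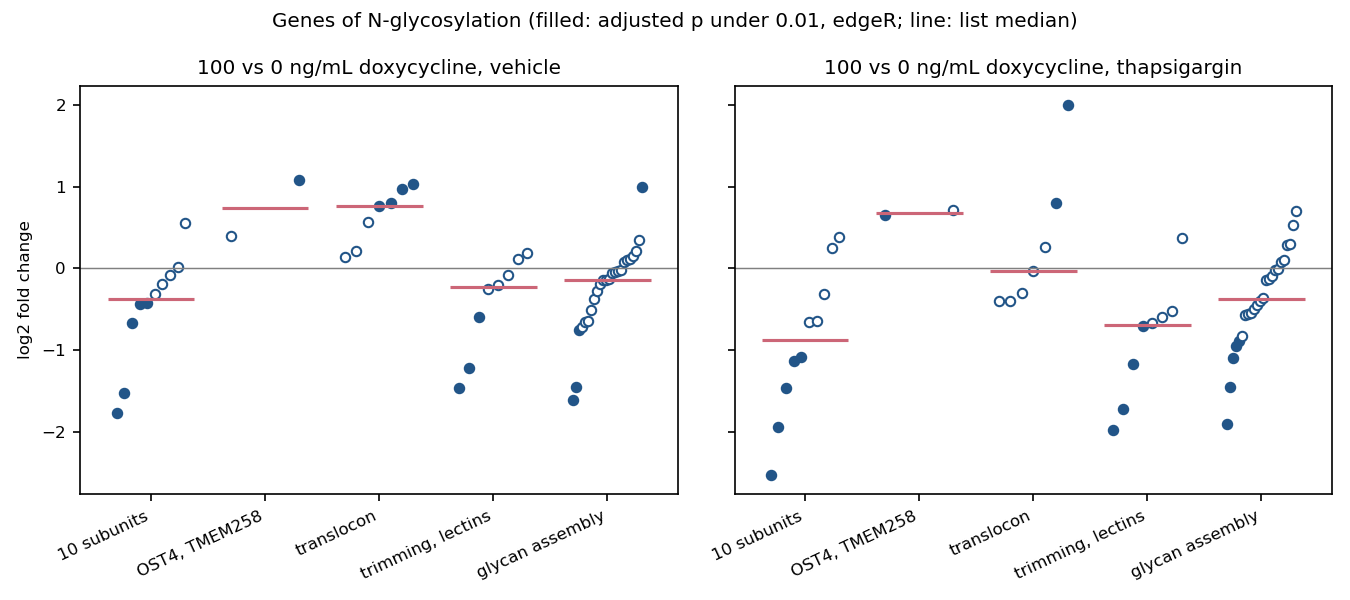
Log2 fold change for 100 against 0 ng/mL doxycycline with vehicle (left) and thapsigargin (right), 1 point per gene ordered by value within each list, filled for an adjusted p under 0.01 by edgeR, with a red line for the list median. The medians of the 10 OST subunits are -0.37 and -0.87, those of the translocon list 0.77 and -0.03, and the highest point on the right is SEC61G (2.00).

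The 10 genes lie on 8 chromosomes, and some share bases with neighbours in GENCODE 29 (GRCh38), the labels naming hg38. RPN1 (chr3:128619970-128681075, minus strand) contains the pseudogene POU5F1P6 on its own strand over 2271 bases. STT3A (chr11:125591712-125625215, plus strand) overlaps FEZ1 on the other strand over 857 bases and CHEK1 on its own over 80, and STT3B (chr3:31532638-31637622, plus strand) overlaps none. RPN2 (chr20:37178410-37241623, plus strand) overlaps MROH8 on the other strand over 1179 bases, and DDOST (chr1:20651767-20661544, minus strand) overlaps PINK1-AS on its own strand over 427. TUSC3 lies at chr8:15417215-15766649 (plus strand) and MAGT1 at chrX:77826364-77895593 (minus strand), each with a short or noncoding gene on the other strand. DAD1 is at chr14:22564905-22589269 (minus strand), OSTC at chr4:108650584-108667820 (plus strand) and KRTCAP2 at chr1:155169408-155173475 (minus strand). How the counting treated strand and shared bases is not given in the sources used here.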

How the data were processed

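RNA-Seq libraries were made from total RNA with a stranded mRNA kit (KAPA HyperPrep) and read as 75-cycle single ends. The authors deposited a table of unnormalized read counts, with gene symbols as rows and libraries as columns, made with the VIPER pipeline. The processing notes of the labels name STAR, DESeq2 and hg38 without versions, and the annotation and the strand setting of the counting are not given in the sources used here. Groups and replicate numbers came from the sample titles. Whether replicates were separate cultures is not stated, so p-values measure the spread between these libraries. Replicates differed by more than sampling noise (chi-square per degree of freedom 7.33 to 63.8) and all 18 were kept.

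Each comparison used the libraries of its groups. Genes were kept by filterByExpr (minimum count 10), scaled by TMM factors and fitted by quasi-likelihood in edgeR 4.0.16 under R 4.3.3 (glmQLFit, then glmQLFTest). Adjusted p-values (Benjamini-Hochberg) cover every gene of a comparison, and 0.01 was the threshold. The SE of a log2 fold change was its size over the root of the F statistic, and intervals are at 95%. CPM were scaled by TMM over all 18 libraries. Ratios used reads plus 0.5 and exact two-sided permutation tests over libraries, with a threshold of 0.05. The members and the lists were chosen with earlier results of these data known. All 10 subunits are named. At most 3 genes past the threshold with the largest change are named from each companion list and comparison, together with ERN2 and XBP1 as checks.

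Replicate numbers were taken to pair libraries only where all 3 correlations of same-numbered deviations were over 0.1, which held for 10 against 0 ng/mL under thapsigargin (0.51, 0.45 and 0.59). Alternatives were an adjusted p of 0.05, DESeq2 1.42.0, RLE size factors, library totals, no filter, all 6 groups in 1 fit, the replicate block, a pseudocount of 0 and each library left out. The tests were checked on simulated counts. The comparison of the ratio changes between treatments was added after the values were seen. Figures were drawn with matplotlib 3.10.9.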

Additional observations from a re-analysis of the deposited data

Results flagged for a closer look

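The change of the STT3B over STT3A ratio with 100 ng/mL doxycycline differed between treatments. On the log2 scale it was -0.244 with vehicle and 0.765 with thapsigargin, and the difference of 1.01 had an exact two-sided permutation p of 0.005, the smallest that 400 arrangements of the dose labels within treatment can give. This test was added after the values were seen, and its null is that dose changes the ratio in neither treatment. For MAGT1 over TUSC3 the same difference was 0.22 (exact permutation p = 0.705). The edgeR interaction was -0.98 for STT3A (adjusted p = 0.0472) and 0.07 for STT3B, whose sign changed with the scaling. The 3 libraries with 100 ng/mL and thapsigargin had ratios of 0.485, 0.563 and 0.623, with ERN2 at 272, 175 and 175 CPM and totals of 19581837, 14876416 and 20923608 counts. The part of these values in the difference was not tested.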

How the results depend on the processing

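No subunit's log2 fold change that passed in any fit reversed under an alternative, and 57 of 77 counts of subunits stayed within 1.5 times the reported one when all libraries were kept. The others were as follows, in numbers of the 10 subunits past the threshold. For 10 against 0 ng/mL with vehicle (0), DESeq2 and no filter each gave 2. For 100 against 0 ng/mL with vehicle (5), all 6 groups in 1 fit and the replicate block each gave 2 (RPN1 and TUSC3), and STT3B had adjusted p of 0.0161 and 0.0213 there. For 100 against 10 ng/mL with vehicle (2), an adjusted p of 0.05 and DESeq2 each gave 4, library totals 1 and the replicate block 6. For thapsigargin in uninduced cells (2), library totals and all 6 groups each gave 1. For thapsigargin at 10 ng/mL (0), the replicate block gave 4. For thapsigargin at 100 ng/mL (0), an adjusted p of 0.05 and no filter each gave 3, DESeq2 4, library totals 1 and all 6 groups 5. For 10 against 0 ng/mL under thapsigargin (0), the replicate block gave 3. For the interaction at 100 ng/mL (0), an adjusted p of 0.05 and no filter each gave 1 and DESeq2 3. The difference in MAGT1 over TUSC3 at 100 ng/mL stayed 1.55 with the replicate block. Its exact permutation p there was 0.0312 (adjusted 0.0625), the smallest that exchanging labels within pairs can give. The causes were not tested.

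With 1 library left out the counts ran from 0 to 4 (10 against 0 ng/mL, vehicle), 3 to 5 (100 against 0, vehicle), 0 to 3 (100 against 10, vehicle), 0 to 1 (thapsigargin at 0), 0 to 0 (at 10), 0 to 4 (at 100), 0 to 0, 5 to 6 and 1 to 6 (10 against 0, 100 against 0 and 100 against 10 under thapsigargin), and 0 to 0 and 0 to 3 (interactions at 10 and 100 ng/mL). STT3B over STT3A with thapsigargin ran from 0.25 to 0.33, passing without uninduced control replicate 2, uninduced stress replicate 2 or stress replicate 2 at 10 ng/mL.

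Counts over all genes moved by over 1.5 times in 48 of 77 alternatives that kept all libraries. In the order of the preceding counts, 28 became 3 to 623, 1203 became 750 to 2063, 356 became 290 to 1224, 1611 became 1273 to 3571, 212 became 188 to 3620, 29 became 4 to 941, 0 became 0 to 564, 1512 became 1390 to 3018, 805 became 384 to 2061, and for the interactions 0 became 0 to 2 and 6 became 3 to 341. With 1 library left out they ran, in the same order, from 0 to 2743, 915 to 1397, 0 to 496, 731 to 1901, 28 to 494 and 4 to 2568. Between doses under thapsigargin they ran from 0 to 0, 763 to 3950 and 42 to 2712, and for the interactions from 0 to 0 and 2 to 1286. For thapsigargin at 100 ng/mL, 26 of 29 calls were higher with TMM and 28 of 51 with library totals. Outside 10 against 0 ng/mL under thapsigargin, the rule for pairing was not met, although some same-numbered libraries deviated together. For thapsigargin at 10 ng/mL the correlations were 0.62, -0.036 and 0.57, and the block called 3620 genes where 212 were called without it. With thapsigargin in uninduced cells they were 0.078, 0.29 and 0.37 (3571 against 1611 genes). The block called fewer genes in other comparisons, for instance 4 against 29 for thapsigargin at 100 ng/mL. The positive sign of DAD1 for 100 against 10 ng/mL under thapsigargin (0.02) became -0.03 with library totals. Each group had 3 libraries, and the causes of these shifts were not tested.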
